A study of Mus musculus with 19 samples.

Results

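Imprinted genes are expressed mainly from a single parental allele, and many of them set the pace of embryonic growth. Of these, 10 were followed across the cell fractions of the developing mouse kidney: the long noncoding RNAs H19 and Meg3, the membrane protein gene Dlk1, the retrotransposon-derived gene Peg10, the zinc finger genes Plagl1 and Peg3, the growth inhibitors Cdkn1c and Grb10, and the paternally expressed genes Mest and Ndn. They were taken by gene symbol, as 10 of 20162 names in a table of kidney cells from embryonic day E16.5 and as the same 10 of 24452 names in a table from E14.5. In mice, most of the paternally expressed members are known for supporting growth, and the maternally expressed H19, Grb10 and Cdkn1c are known for holding it back. Meg3 is maternally expressed as well and lies beside Dlk1 in a shared imprinted cluster. Which parental allele a transcript came from was not measured.

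The study set nephron progenitors, the cells that give rise to the filtering units, against stromal progenitors, which form the connective tissue around them. Its 19 libraries of polyadenylated RNA came from kidneys of the CFW strain and fall into 7 groups. SIX2+ and SIX2- cells at E16.5, for which the labels give no engineered allele, were separated with an antibody to the nephron progenitor protein SIX2 inside the cell (the libraries' titles call the method MARIS). They were drawn from nephrogenic zone cells (NZC), the outer rim of the kidney, which were also sequenced without sorting (n = 3 libraries in each of the 3 groups). GFP+ and GFP- cells at E16.5 came from Six2TGC/+ kidneys, which carry GFP under the control of Six2 (n = 3 each). Tdt+ and Tdt- cells at E14.5 came from Foxd1Cre;Tdt kidneys, in which Cre driven by the stromal gene Foxd1 turns on a red reporter that then stays on in the descendants (n = 2 each). Each engineered allele was present in the positive and in the negative fraction of its sort. Values are RPKM, reads per kilobase of gene scaled by library depth, so levels can be compared between genes. Nothing in the labels ties the libraries to separate animals or litters, so the p-values speak of library-to-library spread, which may be technical.

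The estimated depth was 3100000 to 45500000 reads at E16.5 and 8400000 to 30400000 reads at E14.5, and the shallowest library was NZC replicate 2. Six2 averaged 351 ± 92.6 RPKM in SIX2+ and 19.6 ± 23.6 RPKM in SIX2- cells, and 335 ± 20.4 RPKM in GFP+ and 7.45 ± 8.08 RPKM in GFP- cells (SD, n = 3 each). Foxd1 averaged 153 ± 72.9 RPKM in Tdt+ and 27.5 ± 3.34 RPKM in Tdt- cells (SD, n = 2 each). These markers went with the labels, although SIX2- replicate 3 held 46.8 RPKM of Six2, against 4.43 and 7.59 RPKM in the other SIX2- libraries. Foxd1 did not stand for stromal markers in general. The mean sum of 10 of them, Foxd1 included, was in Tdt+ cells 70.8% of that in Tdt- cells, and the libraries overlapped.

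In both E16.5 sorts, nephron progenitors held far less Dlk1, Meg3, Peg10 and Plagl1 RNA than the cells around them, less Cdkn1c, and more Grb10. The means of the first 4 were 12.0 to 72.3 times higher in SIX2- than in SIX2+ cells and 20.4 to 69.2 times higher in GFP- than in GFP+ cells. Cdkn1c was 2.85 and 4.14 times higher in the negative fractions, and Grb10 was 1.88 and 1.94 times higher in SIX2+ and GFP+ cells. A gene was called at an adjusted p under 0.05 in limma's moderated test on log2(RPKM + 1), adjusted over all genes tested by the Benjamini-Hochberg method. All 10 members passed the filter on low values. By that rule 7 of 10 members were called between SIX2+ and SIX2- cells, 1 higher and 6 lower, where 24.3% of all genes tested were called (8.37% higher and 15.9% lower). Between GFP+ and GFP- cells 7 of 10 were called, again 1 higher and 6 lower, where 32.9% of all genes were (15.9% higher and 17% lower). The sorts share no library, and 5 members were called lower and 1 higher in both, as were 13.1% and 7.39% of all genes tested. The median log2 change of the 10 members was −1.11 in the SIX2 sort, against 0.04 for all genes tested, and −1.45 in the GFP sort, against 0.09. In bulk samples like these, fewer cells of a type and less RNA per cell cannot be told apart.

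**Figure D1:**
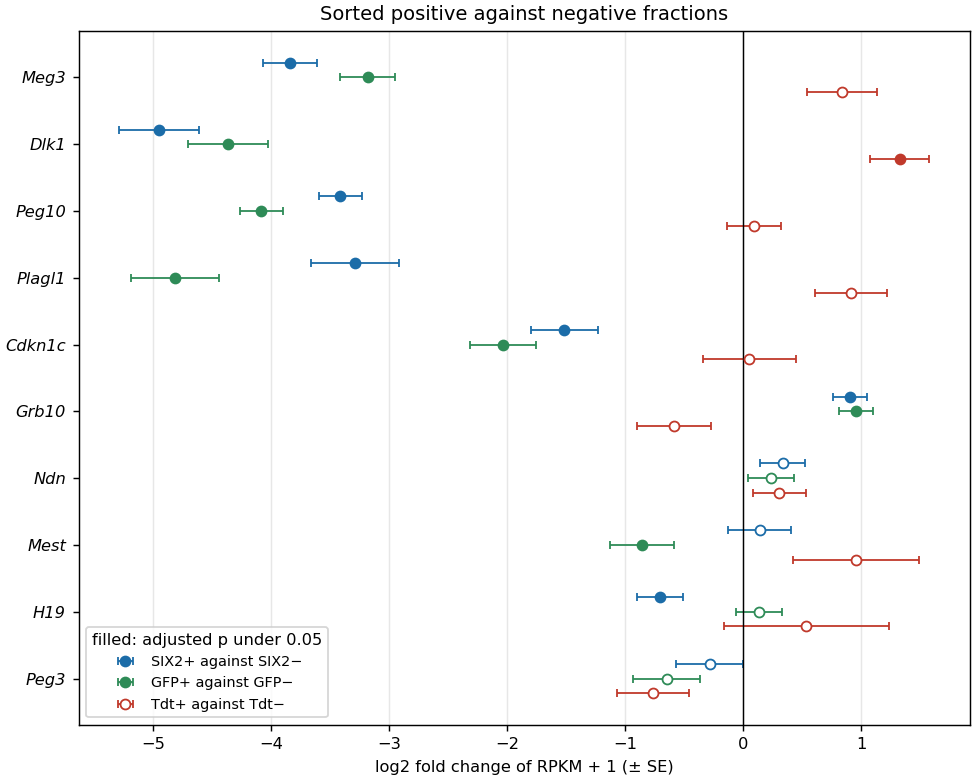
Log2 fold change of RPKM + 1 (horizontal axis, ± SE) of each of the 10 genes in SIX2+ against SIX2- cells, GFP+ against GFP- cells and Tdt+ against Tdt- cells, with filled points for adjusted p under 0.05. Meg3, Dlk1, Peg10 and Plagl1 lie below −3 in both E16.5 sorts, Grb10 lies near 0.9 in both, and in Tdt+ cells only Dlk1 is called.

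Dlk1 encodes a transmembrane protein related to the Notch ligands and is known for holding back the differentiation of fat and other mesenchymal cells. It lies on chromosome 12 (109452823 to 109463336, plus strand, GRCm38, GENCODE M21). Its level was 0.805, 0.786 and 0.695 RPKM in the 3 SIX2+ libraries, against 52.0, 40.3 and 73.0 RPKM in the SIX2- libraries of replicates 1, 2 and 3. In the reporter sort it was 1.18, 1.24 and 1.19 RPKM in GFP+ cells, against 45.4, 36.9 and 52.8 RPKM in GFP- cells. The fractions are separated by a wide gap in both sorts, and no positive library came near any negative one. The log2 change was −4.95 ± 0.34 in the SIX2 sort (SE, adjusted p = 1.01e-07) and −4.37 ± 0.34 in the GFP sort (adjusted p = 2.50e-07). Dlk1 therefore stood between ranks 872 and 1812 of all genes by RPKM in the negative fractions and between ranks 10947 and 11667 in the positive fractions.

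Meg3, a long noncoding RNA that lies downstream of Dlk1 on the same strand and is expressed from the other parental allele, was likewise low in progenitors. It spans 109541001 to 109571726 on chromosome 12. Its values were 0.694, 0.364 and 0.436 RPKM in SIX2+ libraries, against 24.1, 13.6 and 25.6 RPKM in SIX2- libraries. In GFP+ libraries they were 0.671, 0.645 and 0.905 RPKM, against 12.4, 13.0 and 19.9 RPKM in GFP- libraries. All 6 positive libraries were under 1 RPKM, and the lowest of the 6 negative libraries was at 12.4 RPKM. On the log2 scale Meg3 changed by −3.84 ± 0.23 (SE, adjusted p = 3.01e-08) and −3.18 ± 0.23 (adjusted p = 1.29e-07) in the SIX2 and GFP sorts. The fewest reads estimated behind a Meg3 value at E16.5 were 260, so even the lowest level rests on a measurable number of reads. A predicted antisense RNA overlaps exons of Meg3, and whether reads were counted by strand is not given in the sources used here.

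Dlk1 and Meg3 are therefore shown with the 300 bases around their starts, as the pair of cluster neighbours that were both low in nephron progenitors, followed by Plagl1, which was low with them, and Grb10, which was the member called higher. Each sequence runs from 250 bases before to 50 bases after the annotated start (RefSeq, GRCm38.p6), 5′ to 3′ on the gene's strand. Capitals mark the motif TATAAA, searched on both strands. Across 32851 promoters of this length, 13.6% hold the motif and the median number of CpG dinucleotides, the pairs at which DNA is methylated, is 7.
Dlk1, chr12:109452573-109452872, plus strand: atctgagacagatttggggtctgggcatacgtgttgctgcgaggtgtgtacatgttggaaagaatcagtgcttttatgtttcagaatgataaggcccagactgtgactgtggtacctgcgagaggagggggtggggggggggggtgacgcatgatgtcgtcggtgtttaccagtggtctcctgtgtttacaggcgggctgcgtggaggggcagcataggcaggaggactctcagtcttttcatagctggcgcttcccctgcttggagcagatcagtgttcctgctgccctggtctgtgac
Meg3, chr12:109540746-109541045, plus strand: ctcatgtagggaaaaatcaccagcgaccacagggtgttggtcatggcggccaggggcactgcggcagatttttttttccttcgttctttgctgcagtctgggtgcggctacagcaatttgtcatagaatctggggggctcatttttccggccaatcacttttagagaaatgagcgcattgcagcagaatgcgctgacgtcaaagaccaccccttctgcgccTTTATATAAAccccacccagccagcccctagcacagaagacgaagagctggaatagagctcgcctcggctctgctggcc
Plagl1, chr10:13090582-13090881, plus strand: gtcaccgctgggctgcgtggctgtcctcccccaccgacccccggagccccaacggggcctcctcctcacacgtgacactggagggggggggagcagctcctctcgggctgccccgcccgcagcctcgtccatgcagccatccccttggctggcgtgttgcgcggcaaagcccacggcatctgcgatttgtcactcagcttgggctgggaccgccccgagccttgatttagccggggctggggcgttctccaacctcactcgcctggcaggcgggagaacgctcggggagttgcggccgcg
Grb10, chr11:12037371-12037670, minus strand: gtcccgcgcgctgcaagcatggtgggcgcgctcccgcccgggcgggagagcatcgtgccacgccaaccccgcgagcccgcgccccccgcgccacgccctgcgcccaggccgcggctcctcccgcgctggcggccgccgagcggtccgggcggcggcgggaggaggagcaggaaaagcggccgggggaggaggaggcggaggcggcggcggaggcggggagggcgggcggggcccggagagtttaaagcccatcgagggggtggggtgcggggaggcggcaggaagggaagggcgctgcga
The Meg3 window has 2 overlapping matches, 1 on each strand, just before the start, and the other 3 windows have none. Dlk1 holds 9 CpG dinucleotides, Meg3 13, Plagl1 26 and Grb10 45, and 98.4% of all promoters hold no more than the Grb10 window. Grb10 and Meg3 each have a second listed start, not printed, with 9 and 1 CpG dinucleotides and no motif. For this other Grb10 window, 56.5% of all promoters hold no more CpG dinucleotides. The promoter table covered 7 of the 10 members with 11 start sites, of which 1 held the motif. Methylation of these windows was not measured.

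Peg10 derives from an ancient retrotransposon and is needed for the placenta. It lies on chromosome 6 (4747306 to 4760517, plus strand). Peg10 was at 0.619, 0.859 and 0.599 RPKM in SIX2+ libraries, against 17.9, 16.6 and 16.6 RPKM in SIX2- libraries. In the reporter sort it was at 0.388, 0.277 and 0.270 RPKM in GFP+ libraries, against 26.6, 19.9 and 18.1 RPKM in GFP- libraries. No library of a positive fraction reached 1 RPKM, and the SIX2- libraries differed little among themselves. Peg10 changed by −3.42 ± 0.18 on the log2 scale in the SIX2 sort (SE, adjusted p = 1.02e-08) and −4.09 ± 0.18 in the GFP sort (adjusted p = 1.97e-09). These were the smallest adjusted p-values among the members in both sorts. The lowest Peg10 value rests on an estimated 57.7 reads.

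Plagl1 encodes a zinc finger transcription factor that halts the cell cycle and regulates other imprinted genes. It spans 13060504 to 13131694 on chromosome 10 (plus strand). It was at 4.91, 5.23 and 1.60 RPKM in SIX2+ libraries, against 72.3, 39.5 and 29.1 RPKM in SIX2- libraries. In GFP+ libraries it was at 2.43, 2.11 and 1.88 RPKM, against 90.4, 96.5 and 75.9 RPKM in GFP- libraries. The fractions did not overlap in either sort, but the values spread more among SIX2- than among GFP- libraries. The log2 change was −3.29 ± 0.37 (SE, adjusted p = 1.34e-05) in the SIX2 sort and −4.82 ± 0.37 (adjusted p = 2.45e-07) in the GFP sort. The difference between these changes, 1.53 ± 0.52, was not called (adjusted p = 0.467).

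Cdkn1c encodes the cyclin-dependent kinase inhibitor p57, which stops cells from dividing. It lies on chromosome 7 (143458339 to 143461050, minus strand), where a predicted antisense RNA overlaps its exons. Its values were 161, 89.3 and 118 RPKM in SIX2+ libraries, against 442, 272 and 334 RPKM in SIX2- libraries. In GFP+ libraries they were 113, 102 and 73.2 RPKM, against 493, 385 and 312 RPKM in GFP- libraries. Unlike the 4 genes above, Cdkn1c was well expressed in progenitors too, at 89.3 RPKM or more in SIX2+ and 73.2 RPKM or more in GFP+ libraries. Its log2 change was −1.52 ± 0.28 (SE, adjusted p = 0.00109) and −2.04 ± 0.28 (adjusted p = 7.03e-05) in the SIX2 and GFP sorts.

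Grb10 encodes an adaptor protein that binds the insulin and insulin-like growth factor receptors and dampens their signal. It spans 11930508 to 12038683 on chromosome 11 (minus strand). It was at 318, 293 and 321 RPKM in SIX2+ libraries, against 159, 156 and 181 RPKM in SIX2- libraries. In GFP+ libraries it was at 418, 362 and 374 RPKM, against 210, 202 and 182 RPKM in GFP- libraries. Every positive library was above every negative library of both sorts. Grb10 had log2 changes of 0.91 ± 0.14 (SE, adjusted p = 0.000317) and 0.95 ± 0.14 (adjusted p = 0.000154), and the difference between the sorts was −0.05 ± 0.20 (adjusted p = 0.9998).

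**Figure D2:**
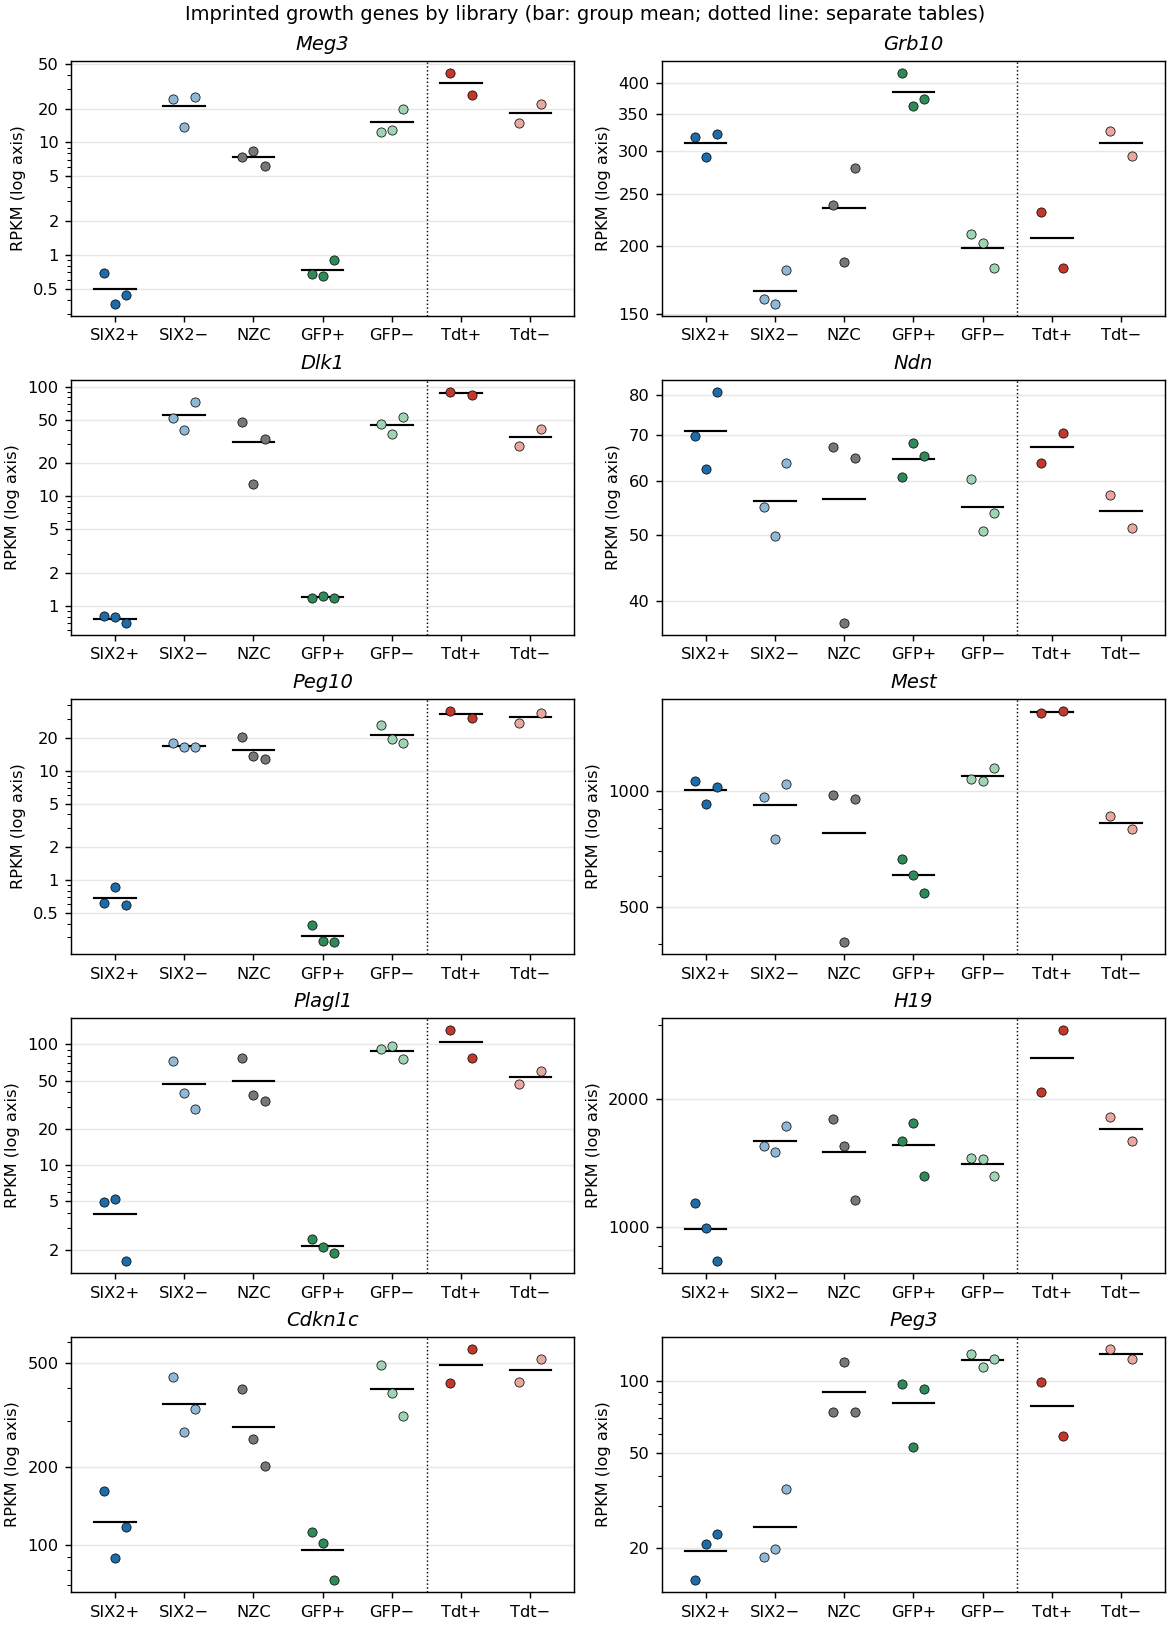
RPKM on a log axis for the 10 genes in every library, one panel per gene, with a point per library and a bar at the group mean, for the E16.5 groups and the separately normalised E14.5 groups. The positive and negative E16.5 fractions stand far apart for Dlk1, Meg3, Peg10 and Plagl1, whereas Ndn stays between 37.1 and 81.0 RPKM in every E16.5 library.

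The remaining members were called in at most 1 of the E16.5 sorts. H19, a long noncoding RNA among the most abundant transcripts of the embryo, was at 1136, 994 and 827 RPKM in SIX2+ libraries, against 1549, 1500 and 1732 RPKM in SIX2- libraries. In the reporter sort it was at 1593, 1757 and 1315 RPKM in GFP+ libraries, against 1455, 1446 and 1320 RPKM in GFP- libraries. H19 was thus lower in all SIX2+ than in all SIX2- libraries, and the GFP fractions overlapped. The log2 change was −0.70 ± 0.19 in the SIX2 sort (SE, adjusted p = 0.0160) and 0.14 ± 0.19 in the GFP sort (adjusted p = 0.633), and the difference between them, −0.84 ± 0.28, was not called (adjusted p = 0.408). The call in the SIX2 sort was lost without SIX2+ replicate 3 (adjusted p = 0.0846), without SIX2- replicate 3 (0.0610) and with no filter on low values (0.0761). H19 lies on chromosome 7 (142575529 to 142578143, minus strand) and ranked between 5 and 76 by RPKM in the E16.5 libraries.

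Mest encodes a protein of the alpha/beta hydrolase family and marks embryonic mesoderm. It lies on chromosome 6 (30723547 to 30748465, plus strand), where its exons overlap those of Copg2 on the other strand. Mest was at 1065, 928 and 1024 RPKM in SIX2+ libraries, against 967, 750 and 1047 RPKM in SIX2- libraries. In GFP+ libraries it was at 666, 607 and 543 RPKM, against 1076, 1064 and 1153 RPKM in GFP- libraries. The SIX2 fractions overlapped, while every GFP+ library was below every GFP- library. The log2 change was 0.14 ± 0.27 (SE, adjusted p = 0.785) in the SIX2 sort and −0.86 ± 0.27 (adjusted p = 0.0250) in the GFP sort. The call in GFP+ cells was lost without GFP+ replicate 2 or 3, without any of the 3 GFP- libraries (adjusted p = 0.0550 to 0.0778) and with no filter on low values (0.0563).

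Ndn, which encodes necdin, a growth suppressor of neurons and other cells that have stopped dividing, spans 62346569 to 62350262 on chromosome 7 (plus strand). It averaged 71.0 ± 9.39 RPKM in SIX2+ and 56.1 ± 7.02 RPKM in SIX2- cells, and 64.6 ± 3.65 RPKM in GFP+ and 54.8 ± 4.91 RPKM in GFP- cells (SD, n = 3 each). The difference was not called in either sort (log2 changes 0.33 ± 0.19, adjusted p = 0.251, and 0.24 ± 0.19, adjusted p = 0.376, SE). Without NZC replicate 2 in the shared fit, the SIX2 difference had an adjusted p of 0.0485.

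The difference between the SIX2 and the GFP sort was tested directly for each member. None of the 10 members was called by limma, where 0.14% of all genes were (0.0468% higher and 0.0936% lower). For Mest the difference was 1.0 ± 0.38 (SE, adjusted p = 0.629). It was called when only the 4 groups compared entered the fit (adjusted p = 0.0490) and without NZC replicate 2 (adjusted p = 0.0474).

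Among the members, Peg3 set the antibody-sorted libraries apart from all the others. It encodes a large zinc finger protein, expressed from the paternal allele and known for effects on growth and maternal behaviour, and spans 6703892 to 6730431 on chromosome 7 (minus strand). Peg3 was at 14.6, 20.7 and 22.8 RPKM in SIX2+ libraries and at 18.3, 19.7 and 35.3 RPKM in SIX2- libraries. In GFP+ libraries it was at 97.3, 52.9 and 92.6 RPKM and in GFP- libraries at 131, 115 and 124 RPKM, while unsorted NZC held 74.5, 121 and 74.1 RPKM. All 6 antibody-sorted libraries were thus below all 9 other E16.5 libraries. Neither sort showed a called difference between its fractions (SIX2+ against SIX2-, −0.28 ± 0.28, adjusted p = 0.542, and GFP+ against GFP-, −0.65 ± 0.28, adjusted p = 0.0922, log2 ± SE), although the GFP fractions did not overlap and the adjusted p was 0.0449 with only those groups in the fit.

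Across the sorts Peg3 was the only member called in the main fit. It was lower in SIX2+ than in GFP+ cells, by a log2 change of −1.98 ± 0.28 (SE, adjusted p = 0.00264), where 3.07% of all genes were called (0.772% higher and 2.3% lower). It was also lower in SIX2- than in GFP- cells, by −2.35 ± 0.28 (adjusted p = 0.000546), where 10.1% of all genes were called (5.7% higher and 4.42% lower). Sort, allele and starting cells differ together in these comparisons and cannot be told apart. Some alternatives added a call in SIX2+ against GFP+ cells. Mest was called higher without NZC replicate 2 (limma adjusted p = 0.00862) and with only these groups in the fit (0.0465). H19 was called lower after rescaling to TPM (0.0264) and quantile normalisation (0.0368), and Peg10 higher with 0.1 added before the logarithm (0.0370). In the SIX2- against GFP- comparison, where same-numbered libraries deviated together, adding the replicate number as a block also called Plagl1 lower (adjusted p = 0.0209).

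The comparisons of each antibody-sorted fraction with the NZC it was drawn from were added after the values were seen. Peg3 was lower than in NZC in SIX2+ cells (−2.14 ± 0.28 on the log2 scale, SE, adjusted p = 7.41e-05) and in SIX2- cells (−1.86 ± 0.28, adjusted p = 0.00225). Its highest value in a sorted library, 35.3 RPKM, was under its lowest in NZC, 74.1 RPKM. With only SIX2- and NZC libraries in the fit, the second of these differences was not called (adjusted p = 0.0710).

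Between antibody-sorted libraries and the others at E16.5, change also went with transcript length, and it did so between the E14.5 fractions. Peg3 has 8694 exonic bases, and among the 872 genes of at least 8 kilobases tested at E16.5 the median log2 change was −0.32 in SIX2+ against GFP+ cells, −0.42 in SIX2- against GFP- cells, −0.50 in SIX2+ against NZC and −0.51 in SIX2- against NZC. Among the 2931 genes under 2 kilobases the same medians were 0.23, 0.40, 0.29 and 0.31. In GFP+ against GFP- cells the medians of the long and the short genes were −0.01 and 0.17. In Tdt+ against Tdt- cells at E14.5 they were −0.57 (850 genes) and 0.30 (2807 genes). A log2 change below −1 was seen in 7.34% of the long genes in SIX2+ against GFP+ cells, in 8.72% in SIX2- against GFP- cells, in 23.3% in SIX2+ against NZC and in 13.9% in SIX2- against NZC. The same was seen in 13.8% of the long genes in GFP+ against GFP- cells and in 20.9% in Tdt+ against Tdt- cells. Length was looked at after the values were seen, and its part in the Peg3 difference was not tested. Zim1, the neighbour of Peg3 with 7819 exonic bases, was also lower in SIX2- than in GFP- cells (log2 change −1.53 ± 0.29, SE, adjusted p = 0.00697). Meg3, the longest member at 15684 exonic bases, was not called in SIX2+ against GFP+ or SIX2- against GFP- cells (adjusted p = 0.735 and 0.225). Its means were only 0.498 RPKM in SIX2+ and 0.740 RPKM in GFP+ cells, where the log2(RPKM + 1) scale understates changes. The part of length in the values of Zim1 and Meg3 was not tested.

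**Figure D3:**
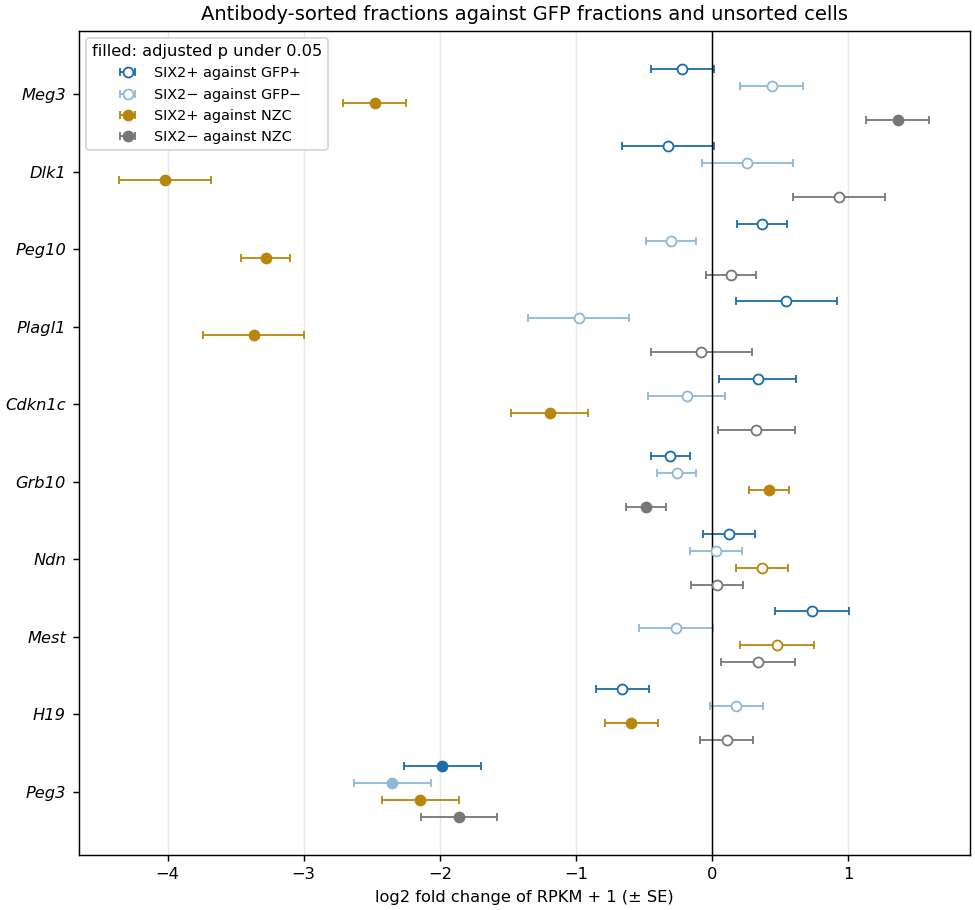
Log2 fold change of RPKM + 1 (horizontal axis, ± SE) of each member in SIX2+ against GFP+ cells, SIX2- against GFP- cells, SIX2+ cells against NZC and SIX2- cells against NZC, with filled points for adjusted p under 0.05. Peg3 lies between −2.35 and −1.86 in all 4 comparisons and is called in each, while no other member is called in the first pair.

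Set against unsorted NZC, 8 of 10 members were called in SIX2+ cells, where 36.6% of all genes were (18.1% higher and 18.5% lower). H19, Meg3, Dlk1, Peg3, Plagl1, Peg10 and Cdkn1c were lower and Grb10 was higher. Dlk1 was at 47.3, 13.0 and 33.4 RPKM in NZC and Peg10 at 20.7, 13.7 and 12.8 RPKM, each far above the SIX2+ values given above (log2 changes −4.02 ± 0.34, adjusted p = 1.23e-06, and −3.28 ± 0.18, adjusted p = 3.06e-08, SE). Plagl1 was at 76.4, 38.3 and 33.7 RPKM and Cdkn1c at 396, 256 and 202 RPKM in NZC, also above every SIX2+ library (log2 changes −3.37 ± 0.37, adjusted p = 1.51e-05, and −1.19 ± 0.28, adjusted p = 0.00556, SE). Mest, at 978, 404 and 952 RPKM in NZC, and Ndn, at 67.1, 37.1 and 64.7 RPKM, overlapped with SIX2+ cells and were not called. In both genes the low value is that of the shallow NZC replicate 2. The H19 and Grb10 calls were the weakest. H19 (−0.59 ± 0.19, SE, adjusted p = 0.0287) lost its call without NZC replicate 1 or 2 or SIX2+ replicate 2 or 3, and Grb10 (0.42 ± 0.14, SE, adjusted p = 0.0356) without NZC replicate 1 or 2 or any of the 3 SIX2+ libraries. With only these groups in the fit both calls were lost (adjusted p = 0.126 and 0.157). H19 also lost its call with no filter on low values (0.106), and Grb10 after rescaling to TPM (0.184) and quantile normalisation (0.198).

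In SIX2- cells against NZC, 3 of 10 members were called, where 11.1% of all genes were (5.16% higher and 5.95% lower). Meg3 was higher in SIX2- cells, with NZC at 7.42, 8.45 and 6.21 RPKM (log2 change 1.36 ± 0.23, SE, adjusted p = 0.00422). Peg3, as above, and Grb10 were lower. Grb10 was at 238, 187 and 279 RPKM in NZC (log2 change −0.49 ± 0.14, SE, adjusted p = 0.0458), between its levels in the sorted fractions. That call was lost without SIX2- replicate 1, 2 or 3 or NZC replicate 1 or 3 (adjusted p = 0.0638 to 0.153), and with only these groups in the fit none of the 10 was called. The Grb10 call was also lost with no filter on low values (0.0528), after rescaling to TPM (0.0761) and with no intensity trend (0.0504).

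At E14.5 the positive fraction was the stromal lineage, and the pattern was another. Dlk1 was at 90.2 and 85.0 RPKM in Tdt+ libraries, against 28.7 and 41.1 RPKM in Tdt- libraries. The Tdt+ libraries lay close together and well above both others. Dlk1 was the 1 member of 10 called (log2 change 1.33 ± 0.25, SE, adjusted p = 0.0169), where 8.43% of all genes were called, 1.22% higher and 7.21% lower. Without Tdt- replicate 1 the log2 change was 1.07 and the adjusted p 0.366, in a fit with 1 residual degree of freedom that takes the spread from the Tdt+ libraries. The call was also lost after rescaling to TPM (0.0584) and with no filter on low values (0.0906).

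Meg3 was at 41.8 and 26.3 RPKM in Tdt+ libraries, against 14.99 and 21.9 RPKM in Tdt- libraries (log2 change 0.83 ± 0.29, SE, adjusted p = 0.141). Plagl1 was at 132 and 76.8 RPKM in Tdt+ libraries, against 46.9 and 59.7 RPKM in Tdt- libraries (0.91 ± 0.31, SE, adjusted p = 0.123). Both genes had every Tdt+ value above every Tdt- value without being called. With the replicate number as a block both were called (adjusted p = 0.0178 and 0.0177), in a fit that called 2307 genes, against 1044. Mest was at 1601 and 1622 RPKM in Tdt+ libraries, against 861 and 797 RPKM in Tdt- libraries (0.96 ± 0.53, SE, adjusted p = 0.332). With no intensity trend in the variance model, the adjusted p for Mest was 0.0417.

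Peg3 was at 99.4 and 58.6 RPKM in Tdt+ libraries, against 137 and 125 RPKM in Tdt- libraries (−0.77 ± 0.30, SE, adjusted p = 0.181). Grb10 was at 231 and 182 RPKM in Tdt+ libraries, against 327 and 293 RPKM in Tdt- libraries (−0.59 ± 0.31, SE, adjusted p = 0.313). Neither was called, and in both every Tdt+ value was under every Tdt- value. The change of long genes in this sort is given above, and the part of length in the Peg3 difference was not tested. H19 (2075 and 2918 RPKM in Tdt+, against 1813 and 1593 RPKM in Tdt- libraries) and Ndn (63.7 and 70.5 RPKM, against 57.2 and 51.0 RPKM) had adjusted p-values of 0.695 and 0.461. Peg10 (35.7 and 30.5 RPKM in Tdt+, against 27.8 and 34.4 RPKM in Tdt- libraries) and Cdkn1c (417 and 567 RPKM, against 424 and 520 RPKM) overlapped between the fractions. In all, 8 of 10 members did not overlap between 2 and 2 libraries, and neither did 54.6% of all genes tested. An unadjusted p under 0.05 was found for 4 members and for 22.8% of all genes.

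Ordered by their means at E16.5, the groups fell into repeating patterns. Meg3 and Dlk1 ran from SIX2- through GFP-, NZC and GFP+ to SIX2+, and the values of SIX2- and GFP- libraries overlapped in both genes. GFP+ and SIX2+ libraries also overlapped in Meg3, and NZC libraries overlapped with GFP- and with SIX2- libraries in Dlk1. Peg10, Cdkn1c and Plagl1 were highest in GFP- and lowest in GFP+ cells by their means. SIX2- and NZC libraries overlapped in each, and GFP+ and SIX2+ libraries in Cdkn1c and Plagl1. The GFP- libraries overlapped with SIX2- libraries in Cdkn1c and with NZC libraries in Peg10, Cdkn1c and Plagl1. Grb10 ran the other way, from GFP+ through SIX2+, NZC and GFP- to SIX2-, with overlap between NZC and GFP- libraries only. In Mest and Ndn every pair of neighbours in the order overlapped. On the common scale of RPKM the members themselves spread from H19 and Mest, at 404 to 1798 RPKM in every E16.5 library, down to Peg10, Dlk1 and Meg3, at most 1.24 RPKM in SIX2+ and GFP+ cells.

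Genes next to the members were compared by a list of 55 other imprinted genes. At E16.5, 41 of them passed the filter, and in the SIX2 sort 2 were called higher and 15 lower, where 8.37% and 15.9% of all genes were. In the GFP sort 7 were called higher and 15 lower, where 15.9% and 17% of all genes were. In both sorts 13 were lower and 2 higher, against 13.1% and 7.39% of all genes. The list's median log2 change was −0.44 and −0.38, against 0.04 and 0.09 for all genes. Rian and Mirg, noncoding RNAs downstream of Meg3, were lower with it. Rian averaged 1.58 ± 0.928 RPKM in SIX2+ and 48.5 ± 13.7 RPKM in SIX2- cells (log2 change −4.28 ± 0.35, SE, adjusted p = 6.04e-07) and changed by −3.88 ± 0.35 in the GFP sort (adjusted p = 1.10e-06). Mirg changed by −2.31 ± 0.21 and −1.63 ± 0.21 (adjusted p = 2.02e-06 and 4.05e-05). Rtl1, in the same cluster, was at most 0.488 RPKM in any library and was not tested.

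Sgce, which starts beside Peg10 and runs the other way, averaged 0.341 ± 0.177 RPKM in SIX2+ and 17.9 ± 3.23 RPKM in SIX2- cells, and 0.292 ± 0.127 RPKM in GFP+ and 21.1 ± 1.88 RPKM in GFP- cells (SD, n = 3 each). Its log2 changes, −3.81 ± 0.23 and −4.10 ± 0.23 (SE, adjusted p = 3.32e-08 and 1.07e-08), were close in size to those of Peg10. Asb4 and Pon2, farther along that stretch of chromosome 6, were lower in both sorts too (Asb4 by −2.97 ± 0.41 and −2.52 ± 0.41, Pon2 by −0.95 ± 0.23 and −1.61 ± 0.23 on the log2 scale, SE). Ppp1r9a, of the same stretch, was not called in either sort, at 6.0 ± 1.34 RPKM in SIX2+ and 4.10 ± 0.695 RPKM in SIX2- cells (SD, n = 3 each, limma adjusted p = 0.286) and at 4.65 ± 2.07 RPKM in GFP+ and 3.59 ± 0.201 RPKM in GFP- cells (adjusted p = 0.538). Phlda2, a placental growth inhibitor near Cdkn1c, changed by −1.48 ± 0.29 and −1.53 ± 0.29 (SE, adjusted p = 0.00163 and 0.00100). Dcn, a matrix gene that is also on the list of stromal markers, had the largest changes of the list, −4.60 ± 0.43 and −5.35 ± 0.43 (SE, adjusted p = 2.29e-06 and 3.65e-07). Kcnq1ot1, the noncoding RNA of the cluster of Cdkn1c and Phlda2, did not pass the filter.

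Igf2, the growth factor gene beside H19, averaged 219 ± 24.9 RPKM in SIX2+ and 475 ± 63.5 RPKM in SIX2- cells (SD, n = 3 each, log2 change −1.11 ± 0.19, SE, adjusted p = 0.000666). In the GFP sort it averaged 345 ± 33.7 RPKM in GFP+ and 468 ± 24.6 RPKM in GFP- cells and was not called (adjusted p = 0.0982). Copg2, which overlaps Mest, was higher in SIX2+ cells (0.59 ± 0.11, SE, adjusted p = 0.00158) and in GFP+ cells (0.86 ± 0.11, adjusted p = 5.04e-05), whereas Mest was not called in the SIX2 sort and was lower in GFP+ cells. Reads from the overlap of Mest and Copg2 cannot be told apart unless strand was counted. Zim1 was lower in SIX2+ than in SIX2- cells (−0.85 ± 0.29, SE, adjusted p = 0.0446) and in GFP+ than in GFP- cells (−1.44 ± 0.29, adjusted p = 0.00141). Of the genes near Ndn, Magel2 averaged 0.581 ± 0.327 RPKM in GFP+ and 1.42 ± 0.644 RPKM in GFP- cells (SD, n = 3 each), and it would not have passed the filter without the GFP- libraries, so its difference, among the 15 lower ones above, is given as values. Snrpn was not called, with group means of 4.17 to 4.48 RPKM in the sorted E16.5 fractions. Nnat, an imprinted membrane protein gene of the embryonic brain, was among the other genes called higher, at 208 ± 35.2 RPKM in SIX2+ and 66.2 ± 7.18 RPKM in SIX2- cells (SD, n = 3 each, log2 change 1.63 ± 0.19, SE, adjusted p = 1.48e-05). It was higher in GFP+ cells as well (1.35 ± 0.19, adjusted p = 6.19e-05).

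In the Foxd1 sort 39 of the other imprinted genes passed the filter, and 3 were called higher and 2 lower, where 1.22% and 7.21% of all genes were. Klf14, a transcription factor gene near Mest, was higher in Tdt+ cells (1.502 ± 0.27, SE, adjusted p = 0.0131), as were Begain (1.18 ± 0.27, adjusted p = 0.0366) and Mirg (1.17 ± 0.29, adjusted p = 0.0458), which lie on either side of Dlk1 and Meg3. Rian, at 66.5 ± 1.70 RPKM in Tdt+ and 36.0 ± 7.75 RPKM in Tdt- cells (SD, n = 2 each), was not called (adjusted p = 0.0642). Dcn was lower in Tdt+ cells (−1.24 ± 0.26, SE, adjusted p = 0.0256), and so was Ppp1r9a (−1.11 ± 0.25, adjusted p = 0.0345). Ppp1r9a has 13088 exonic bases, and the part of length in its difference was not tested. Usp29, on the far side of Peg3, passed the filter only at E14.5 and was not called there (adjusted p = 0.559).

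**Figure D4:**
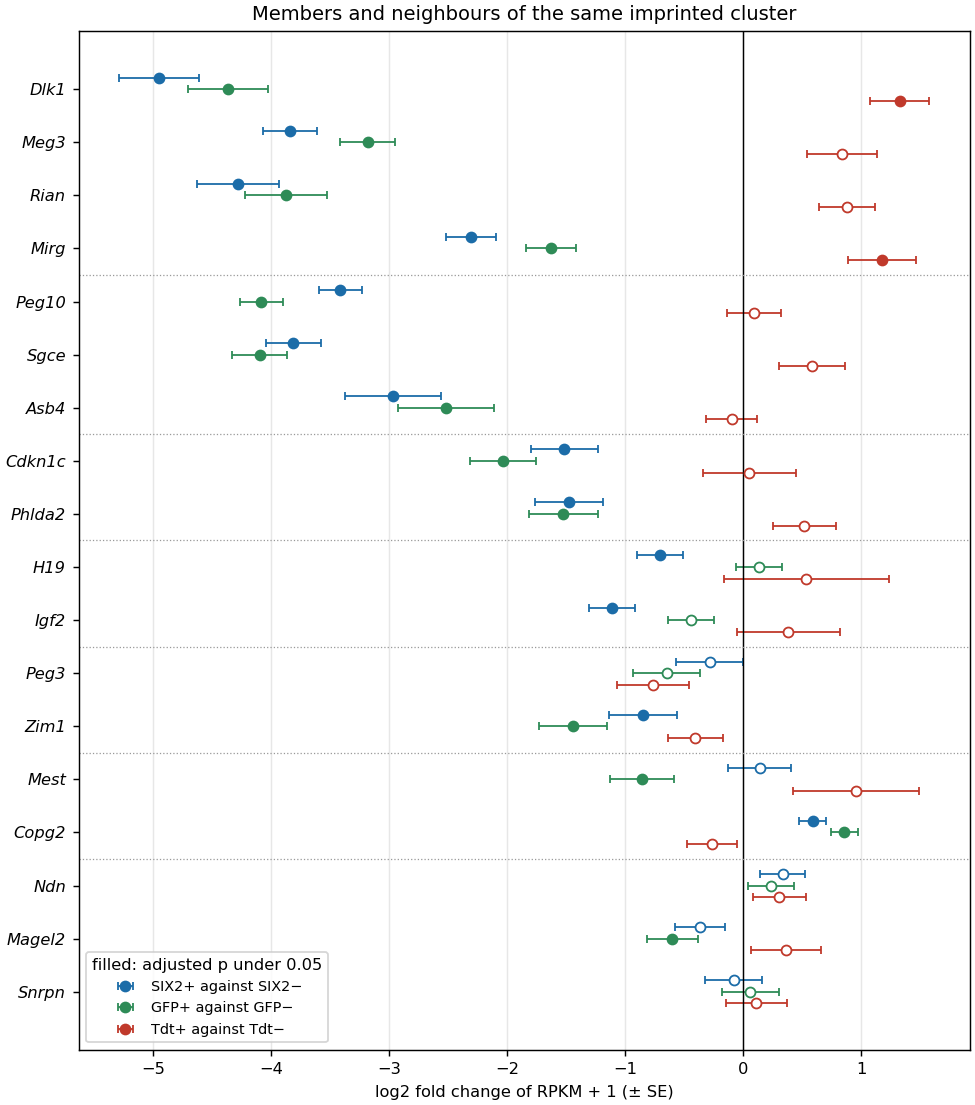
Log2 fold change of RPKM + 1 of the members and their tested neighbours, grouped by imprinted cluster (dotted lines), in the sort comparisons. In the E16.5 sorts Dlk1, Meg3, Rian and Mirg lie below −1.6 together, Peg10 and Sgce lie between −4.10 and −3.42, and Copg2 lies above 0 beside Mest.

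Markers of other cell types moved with the members. In both E16.5 sorts 10 of 10 stromal markers were lower in the positive fraction, and their summed level was 34.3 to 47.5 RPKM in SIX2+ and 1147 to 1818 RPKM in SIX2- libraries, and 54.1 to 75.7 RPKM in GFP+ and 2133 to 3137 RPKM in GFP- libraries. The stromal sum in the positive fractions was thus 2.57% and 2.47% of that in the negative fractions. Dlk1 was at 1.38% and 2.67% of its negative fraction, Meg3 at 2.36% and 4.90%, Peg10 at 4.06% and 1.45%, Plagl1 at 8.33% and 2.44%, and Cdkn1c at 35.1% and 24.2%. None of the stromal markers was listed at 0 in every library of a positive fraction. All 8 endothelial and all 8 leukocyte markers were lower as well in both sorts, and all 7 erythroid markers in the GFP sort, while no erythroid marker was called in the SIX2 sort. Of the ureteric markers 4 of 5 tested were lower and 1 was higher in each sort. Neural markers (2 of 4 higher in SIX2+ cells, 2 higher and 1 lower of 4 in GFP+ cells) and muscle markers (0 of 4 called in SIX2+ cells, 1 of 4 higher in GFP+ cells) were few, and nephron progenitor markers were higher (9 and 8 of 10). At E14.5 the stromal sum was 1549 to 2451 RPKM in Tdt+ and 2386 to 3262 RPKM in Tdt- libraries (1 marker higher, Foxd1, and 2 lower of 10), and the nephron progenitor sum was 97.2 to 178 RPKM in Tdt+ and 451 to 468 RPKM in Tdt- libraries. The endothelial sum was 22.1 to 29.9 RPKM in Tdt+ and 85.0 to 113 RPKM in Tdt- libraries. The leukocyte sum was 1.94 to 6.58 RPKM in Tdt+ and 27.3 to 89.4 RPKM in Tdt- libraries. In both Tdt+ libraries 3 of 8 endothelial, 6 of 8 leukocyte and 2 of 10 nephron progenitor markers were under 1 RPKM. Such markers could pass the filter only through the Tdt- libraries, so the endothelial, leukocyte and nephron progenitor markers are given as values at E14.5. The leukocyte markers Ptprc, Cd52 and Tyrobp were at 0 in both Tdt+ libraries, which were sequenced less deeply than both Tdt- libraries. The part of these cell types in the members' differences was not tested.

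For each member the 3 genes most like it were found by Pearson's correlation of log2(RPKM + 1) over the 15 E16.5 libraries, among 9527 genes. These libraries share their sorts, so the correlations describe the fractions and carry no p. Dlk1 was most like Ebf3, Eln and Cldn1 (r = 0.99 for each), and Peg10 most like Agtr2, Fbln5 and Emp1 (r = 0.99 for each). Plagl1 was closest to Cald1, Dcn and Slc40a1 (r = 0.98 for each), and Meg3 to Plac9b, Selm and Eva1b (r = 0.98 for each). Cdkn1c was nearest to Creb3l1, Gstm2 and Vim (r = 0.97 for each), and Grb10 to Slc1a3, Eya4 and Me2 (r = 0.98, 0.98 and 0.97). Peg3, which separated the collections, was most like Foxn3, Ppp1r12a and Golga3 (r = 0.98 for each). H19 had its own neighbour Igf2 among its 3 (r = 0.85), after Pls3 and Rgs2 (r = 0.87 and 0.86). Ndn was closest to Pltp, Pex14 and Natd1 (r = 0.91, 0.91 and 0.90). Without NZC replicate 2, 14 of the 30 genes found for the 10 members were still among the 3, including all 3 for H19 and none for Ndn.

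Some members carry microRNAs, short RNAs that repress messages matching their seed (bases 2 to 8). The mature RNAs were not measured by these libraries, so the sequences are given for the host transcripts whose levels are described above. They are from RefSeq (GRCm38.p6), 5′ to 3′, with the seed in capitals.
mmu-miR-675-5p, in an exon of H19: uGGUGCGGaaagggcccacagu
mmu-miR-675-3p, in an exon of H19: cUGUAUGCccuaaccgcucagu
mmu-miR-770-5p, in an exon of Meg3: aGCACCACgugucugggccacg
mmu-miR-770-3p, in an exon of Meg3: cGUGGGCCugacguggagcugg
mmu-miR-335-5p, in an intron of Mest: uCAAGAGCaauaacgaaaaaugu
mmu-miR-335-3p, in an intron of Mest: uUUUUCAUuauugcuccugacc
No seed is shared among the 6. Of their hosts, Meg3 was low in SIX2+ and GFP+ cells, while H19 and Mest were at 543 RPKM or more in every SIX2+ and GFP+ library.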

How the data were processed

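Poly(A) RNA libraries were prepared with a stranded mRNA kit from Kapa from RNA extracted with RecoverAll, a kit for fixed cells, and RNeasy Micro, per the labels' protocols; which kit served which library is not recorded. The submitters' processing notes name TopHat2, Partek and mm10 without their roles. An annotation, and whether counting used strand, is not given in the sources used here.

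Tables of 15 E16.5 and 4 E14.5 libraries were deposited by the authors, each normalised separately and titled TPM. The deposited values behave as RPKM: their sums ran from 339454 to 429529 and from 342196 to 453324 (coefficients of variation 7.99% and 13.8%), and the sums after multiplying by exonic length varied by 1.92% and 1.52%. The tests had been planned for TPM and are the same for RPKM. Of low values, 45.6% to 56.1% (E16.5) and 50.6% to 53.0% (E14.5) per library lay within 0.05 of whole reads, so depths are estimates and no count model was used.

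Log2(RPKM + 1) was tested with limma 3.58.1 in R 4.3.3 (eBayes with an intensity trend, two-sided), for genes of at least 1 RPKM in at least 3 (E16.5, 12817 genes) or 2 libraries (E14.5, 12383 genes). The E16.5 fit held 5 group means and 10 residual degrees of freedom, and the E14.5 fit 2. Fold changes on this scale understate changes of low genes. Lengths and positions are from GENCODE M21 (GRCm38). Tables, sequences and figures were made with matplotlib 3.10.9, pandas 2.3.3 and numpy 2.4.6 in python 3.11.15, and the fit was tested on simulated data. The alternatives changed the value added to RPKM (0.1 or 5), the filter, the scaling, the variance model, the libraries and the replicate block.

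The members, the list of other imprinted genes and the marker lists were chosen with earlier results of these data known. Named in addition to the members were up to 6 called genes of largest change among the other imprinted genes in each sort comparison, and the members' cluster neighbours. Ube3a was named after its values were seen, and other listed genes enter the counts only. The genes most like Mest are not reported here.

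Groups share replicate numbers in their titles. Same-numbered libraries deviated together from their group means, with correlations across genes of 0.64, 0.28 and 0.68 for SIX2+ and SIX2-, 0.45, 0.44 and 0.39 for GFP+ and GFP-, and 0.46, 0.44 and 0.55 for SIX2- and GFP- libraries, which were taken as paired. Tdt+ and Tdt- libraries had a correlation of 0.40 for both numbers, since 2 libraries deviate from their mean by equal and opposite amounts. The main design had no block.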

Additional observations from a re-analysis of the deposited data

How the results depend on the processing

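Of 1358 single-gene values under the alternatives, 1267 stayed on the same side of the threshold with the same sign, 37 lost a call, 21 gained one and 33 had the opposite sign, all of them log2 changes not called in either fit. Under TPM and quantile scaling H19 was −0.019 and −0.18 in SIX2- against GFP- cells (0.18 as reported), Peg10 −0.13 and −0.00091 (0.093) and Cdkn1c −0.18 and −0.39 (0.052) in Tdt+ against Tdt- cells, and H19 was −0.13 in the GFP sort after quantile normalisation (0.14). Under TPM, quantile and median-of-ratios scaling Ndn was −0.17, −0.11 and −0.082 in SIX2- against GFP- cells (0.028) and −0.052, −0.13 and −0.033 in SIX2- against NZC (0.035), and the difference between the sorts of Grb10 was 0.027, 0.036 and 0.029 (−0.048). With 1 library left out, the range crossed 0 for Peg3 (−0.45 to 0.0021) and Mest (−0.0029 to 0.24) in the SIX2 sort, Ndn in SIX2- against GFP- cells (−0.066 to 0.11), Grb10 in the difference between the sorts (−0.091 to 0.018), and H19 (−0.068 to 0.25), Plagl1 (−0.43 to 0.28), Mest (−0.081 to 0.56) and Ndn (−0.24 to 0.18) in SIX2- against NZC. It also did so for Peg10 (−0.056 to 0.24) and Cdkn1c (−0.17 to 0.27) in the Foxd1 sort. The member count of the SIX2 sort (7) ran from 6 to 8 and that of the GFP sort (7) from 6 to 7 when 1 library was left out. In SIX2+ against GFP+ cells the count of 1 became 2 with 0.1 added before the logarithm, after rescaling to TPM, after quantile normalisation and with only these groups in the fit, and ran from 1 to 2 with 1 library left out (2 without NZC replicate 2). In SIX2- against GFP- cells 1 became 2 with only the groups compared. In SIX2- against NZC the count of 3 became 0 with only the groups compared. In the difference between the sorts 0 became 1, Mest, with only the groups compared, and ran from 0 to 1 with 1 library left out. In Tdt+ against Tdt- cells 1 became 0 with no filter on low values, 0 after rescaling to TPM and 2 with no intensity trend, and ran from 0 to 3 with 1 library left out, namely 0 without Tdt- replicate 1, 3 without Tdt+ replicate 1 and 3 without Tdt+ replicate 2. These fits have 1 residual degree of freedom and a fraction of 1 library, assumed to vary like the other fraction, and say nothing of stability. The cause of these changes was not tested.

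With the replicate block the member count was 2 in SIX2+ against GFP+ cells (H19 added, adjusted p = 0.0436), whose numbers did not pair (correlations 0.40, −0.02 and 0.58), and 2 in SIX2- against GFP- cells. It was 3 in Tdt+ against Tdt- cells (Meg3 and Plagl1 added, adjusted p = 0.0178 and 0.0177), where 2 pairs share a number and correlated at 0.40. The block also added Dlk1 in SIX2- against NZC (adjusted p = 0.0419). The block changed no other member's call.

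All-gene counts depended more on the choices. Those called ran from 2077 to 4192 in the SIX2 sort, from 3071 to 5685 in the GFP sort and from 229 to 3389 in the Foxd1 sort. Those called in SIX2+ against GFP+ cells ran from 113 to 983 and in SIX2- against GFP- cells from 207 to 3255. The split of called genes into higher and lower moved with scaling, among other choices. In the SIX2 sort 1073 higher and 2036 lower became 1578 and 1574 after quantile normalisation, and in the GFP sort 2035 and 2184 became 1397 and 2532 after rescaling to TPM. In SIX2- against GFP- cells 730 and 566 became 225 and 649 after rescaling to TPM, 498 and 824 after quantile normalisation and 363 and 832 after median-of-ratios scaling. Rescaling to TPM turned 2320 and 2377 into 1281 and 2668 in SIX2+ against NZC and 661 and 763 into 157 and 612 in SIX2- against NZC, where the fit of only these groups called 2 and 12. In the Foxd1 sort 151 and 893 became 60 and 1064 after rescaling to TPM, 239 and 483 after quantile normalisation and 613 and 1694 with the replicate block, and in the difference between the sorts 6 and 12 became 4 and 5, 8 and 7, and 7 and 7 under TPM, quantile and median-of-ratios scaling. Rescaling to TPM moved the median log2 change of all genes in the Foxd1 sort to −0.29, against −0.04. Depth limits the NZC values most, since NZC replicate 2 had an estimated 3100000 reads.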
